A study of Homo sapiens with 4 samples.

Results

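The 42 genes described here encode the coagulation factors, their inhibitors and the complement proteins that hepatocytes release into blood plasma. They were chosen by gene symbol, and each of the 42 symbols was a row of the count table, which held 42169 genes in all. RNA came from Huh7, a human hepatoma line, and 2 groups were compared. The control group was clone 1, with wild-type genotype, and the other group was clone 18, which lacks Brf1 and TTP and is called DKO here. Each clone gave 2 libraries. Cells of both groups were kept in DMSO for 3 h and then received actinomycin D, which blocks transcription, for 10 min at 5 µg/ml until they were harvested. Each genotype was 1 clone, so clone and genotype cannot be told apart, and both groups had been exposed to actinomycin D. Whether replicate 1 and replicate 2 were separate cultures is not in the labels. The p-values therefore reflect only how far these libraries differed, which may be technical.

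Coagulation is a chain of plasma proteases. The contact factors and tissue factor with factor VII each start it, both routes activate factor X, and thrombin then turns fibrinogen into fibrin. Antithrombin and proteins C, S and Z hold the chain in check, and plasmin dissolves the clot. Complement is a parallel protease system in which C1, the lectin proteases or spontaneous turnover lead to cleavage of C3 and C5, after which C6 to C9 form a pore. Factor I, C4-binding protein and the C1 inhibitor restrain it. The liver is the main source of most of these proteins. TTP and BRF1 (the product of ZFP36L1) bind AU-rich elements in 3′ UTRs of mRNAs and promote their decay, and UAUUUAU is the sequence they are best known to bind.

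Since those proteins act through that sequence, the longest annotated 3′ UTR of each gene was searched for it first. That UTR need not belong to the main mRNA of the gene, and the transcripts used in these cells were not determined. UAUUUAU occurred in 4 of 42 members (9.52%), namely FGA, FGB, FGG and F13B. In the UTR of the transcript with the longest coding sequence, 4 members also held it. Among all tested genes with an annotated 3′ UTR, 4293 of 11888 (36.1%) held it. The members' 3′ UTRs were short, with a median of 382.5 bases against 1413 bases over the tested genes, and a longer UTR has more room for a match. The 6 sites are shown with their flanks because they are the only matches among the members. Capitals mark the match, and the sequences were read from GENCODE transcripts on hg38.
FGA, chr4:154583605-154583633, minus strand: auuacaauaugUAUUUAUgucuuuugcua
FGA, chr4:154583433-154583461, minus strand: aauuuuaaaacUAUUUAUgaauauuaaaa
FGB, chr4:154571001-154571029, plus strand: uuuuaaaacuaUAUUUAUuuauguaggau
FGB, chr4:154571005-154571033, plus strand: aaaacuauauuUAUUUAUguaggaucugu
FGG, chr4:154604739-154604767, minus strand: uucucuuacuaUAUUUAUugauuucaagu
F13B, chr1:197039216-197039244, minus strand: gaacauuucguUAUUUAUaaaugaaaacc

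The 2 matches of FGB overlap each other. The longer form UUAUUUAUU occurred in 0 of 42 members. The shorter AUUUA occurred in 20 of 42 members and in 74.5% of the tested genes with a 3′ UTR. A match of these letters is a description and does not show that a protein binds there.

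Counts on genes ranged from 9685798 to 16430228 per library, and 3 counts, taken here as the lowest informative level, corresponded to 0.183 to 0.310 CPM (the count scaled to the library's gene counts, per 1e+06). The members together made up 0.489% and 0.495% of all gene counts in control and 0.504% and 0.540% in DKO. All 14 hepatocyte and hepatoma markers listed were tested, with a summed level of 32033 to 32910 CPM in the control libraries and 32472 to 33816 CPM in the DKO libraries. ALB, the albumin gene, had 7394 ± 348 and 7560 ± 168 CPM (SD, n = 2). The similar sums do not mean that each marker was alike in both clones. At an edgeR adjusted p under 0.05, 2 of the 14 were higher in DKO, 1 was lower and 11 did not pass. Their log2 fold changes ran from -1.13 to 1.16, and 5.37% of all tested genes passed. The 7 blood cell markers summed to 75.9 to 77.5 CPM in the control and 109 to 125 CPM in the DKO libraries, nearly all of it from the lysozyme gene LYZ, and CD3E was at 0. The 8 endothelial and stellate markers summed to 80.9 to 124 CPM and 135 to 141 CPM. VWF, CDH5, KDR and DES were at 0, and PECAM1 rose by 2.03 on the log2 scale (edgeR adjusted p = 0.000163). In bulk RNA, the number of cells of a type and the RNA per cell cannot be told apart. The libraries came from clones of a hepatoma line, so reads of these markers do not by themselves show such cells. The source of these reads was not tested.

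The members differed widely in level, and only some steps of each cascade were well represented. Levels between genes are given as CPM per kb of exon in GENCODE 29. In the control libraries the highest were VTN, which encodes vitronectin, an inhibitor of the complement pore (254 ± 30.9 CPM per kb), FGB (224 ± 50.6) and CLU, the clusterin gene (195 ± 22.4). FGA followed with 140 ± 2.74, and then F2, the prothrombin gene, with 81.4 ± 18.9 (all SD, n = 2). The gap between VTN and FGB and that between FGB and CLU are both smaller than the SD of FGB, so FGB does not differ from either beyond its spread. The same holds for F2 and FGG (77.4 ± 13.3).

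At the other end, F9, which encodes the factor missing in haemophilia B, had 0 counts in every library, which allows at most 0.183 to 0.310 CPM at these depths, for counting error only. KLKB1 (prekallikrein), PLG (plasminogen), C4A, C4B, MASP2, C6, C8B, C8G and C9 had no more than 10 counts in any library. These 10 genes were not tested, and no change in them was detectable at this depth. C4A and C4B are nearly identical in sequence and can lose reads to each other. Of the components that build the complement pore, C5 was well covered (135 to 358 CPM), C8A lay between 2.82 and 3.52 CPM, and C6, C8B, C8G and C9 were near the lowest informative level. The plot of levels per kb shows these gaps.

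**Figure D1:**
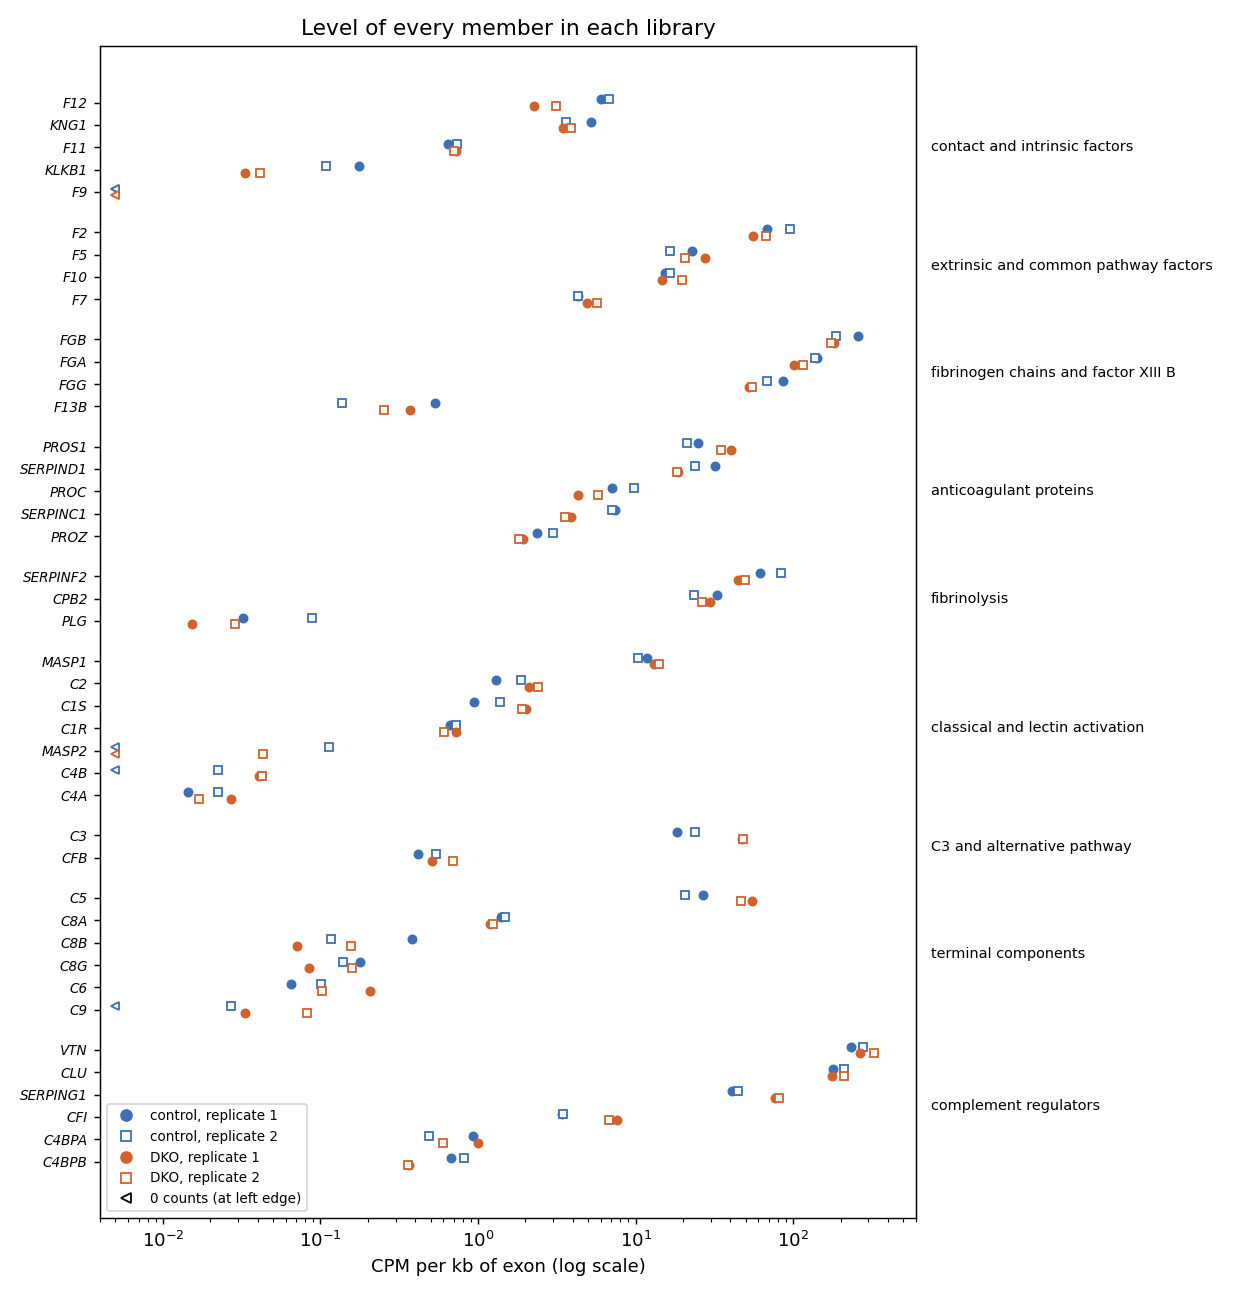
Level of each of the 42 members in each library, as CPM per kb of exon on a log axis, grouped by role. Blue marks are control libraries and orange marks DKO libraries, circles replicate 1 and squares replicate 2, and triangles at the left edge are 0 counts. VTN, FGB and CLU lie highest, F9 has 0 counts throughout, and C3, C5, CFI and SERPING1 have their DKO marks to the right of their control marks.

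DKO was compared with control by edgeR's quasi-likelihood test over 13359 genes. The threshold was 0.05 on the p-value adjusted by Benjamini and Hochberg's method, and 32 of the 42 members were tested. Of these 32, 5 rose in DKO, 2 fell and 25 did not pass. C3, C5, CFI and SERPING1 of complement and PROS1 of coagulation rose, and F12 and SERPINC1 of coagulation fell. Of all tested genes 5.37% passed (2.24% higher and 3.14% lower). DESeq2 called 5.18% of them and limma-voom 5.25%. Before adjustment, the edgeR p was under 0.05 with a higher DKO level for 9.57% and with a lower one for 10.6%. Values were positive for 16 tested members and negative for 16, with a median log2 fold change of 0.01, against 0.00 over all tested genes. For 21 of the 32 members the libraries of control and DKO did not overlap, against 49.9% of all tested genes. With 2 libraries per clone, a 2-sided exact permutation test of 1 gene cannot give a p under 0.333, so the calls depend on the variance that edgeR pools over genes. ERCC spike-in counts were 1.49% and 0.955% of gene counts in control and 1.65% and 2.14% in DKO. With ERCC totals as library sizes the median of all genes moved to -0.68. Directions are therefore relative to the median gene.

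The complement members and the coagulation members had medians on different sides of 0. Among 14 tested complement members 4 rose, 0 fell and 10 did not pass, and 10 had positive values (median 0.33). Among 18 tested coagulation members 1 rose, 2 fell and 15 did not pass, and 12 had negative values (median -0.34). Of all 13359 tested genes 2.24% rose and 3.14% fell, and values were positive for 6699 and negative for 6660. The difference between these medians was not tested, and with ERCC totals as library sizes 0 members rose and only F12 fell.

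**Figure D2:**
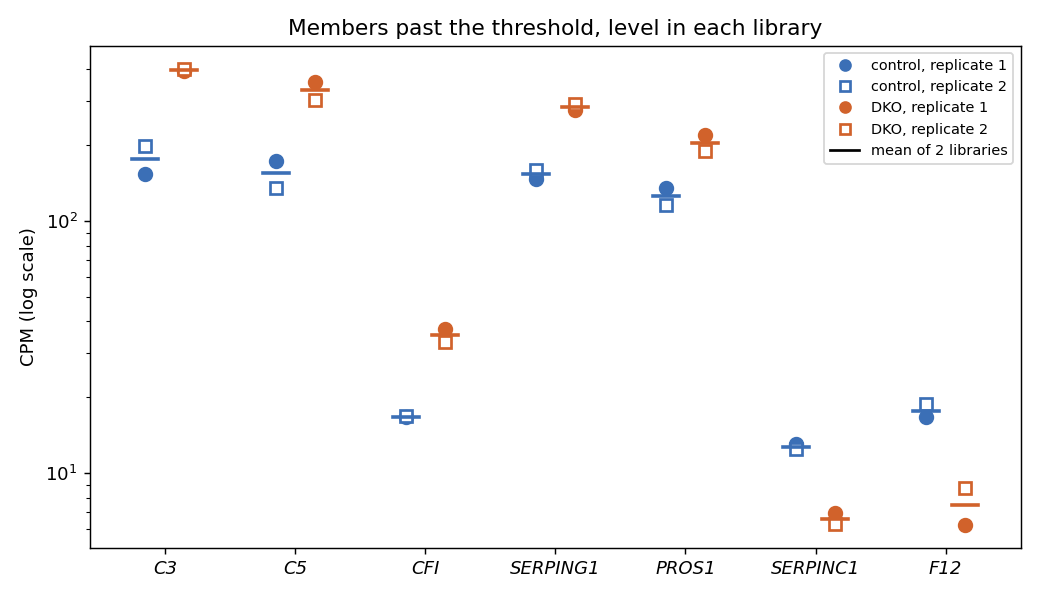
Level of the 7 members past the threshold in each library, in CPM on a log axis. Blue is control and orange DKO, circles are replicate 1, open squares replicate 2, and bars the mean of 2 libraries. The 2 DKO libraries lie above both control libraries for C3, C5, CFI, SERPING1 and PROS1 and below both for SERPINC1 and F12.

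C3, the protein on which all complement routes converge, showed the largest positive value among the tested members. It lies on chromosome 19 (6677704 to 6730562, hg38). Its level was 153 and 199 CPM in control and 393 and 403 CPM in DKO. Both DKO libraries lay well above both control libraries, and they differed little from each other. The log2 fold change was 1.18 (SE 0.21, edgeR adjusted p = 0.00411), a 2.27-fold rise. The call held in each fit without 1 library, with values of 0.98 to 1.41, but not with ERCC totals (0.46). Its annotated span touches GPR108 on the same strand, for which the log2 difference was 0.16 (edgeR adjusted p = 0.718). AC008760.2, annotated on the same strand within an intron of C3, had 15 and 12 counts in control and 35 and 47 in DKO, a log2 difference of 1.34 that did not pass (edgeR adjusted p = 0.0646). The 50 nearest tested genes on the chromosome, members left out, had a median of -0.10, and the part of position in this and the values below was not tested. CFB, which encodes factor B, the protease partner of C3 in the alternative route, had 2.06 and 2.72 CPM in control and 2.53 and 3.47 CPM in DKO. Those libraries overlapped, and the interval of the log2 difference ran from -0.42 to 1.11.

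C5, whose cleavage starts pore formation, lies on chromosome 9 (120952335 to 121050276). Its level was 174 and 135 CPM in control and 358 and 303 CPM in DKO, so the lowest DKO value exceeded the highest control value. It rose 2.16-fold (log2 fold change 1.11, SE 0.20, edgeR adjusted p = 0.00497). It did not pass without DKO replicate 1 (1.01, edgeR adjusted p = 0.0754) or with ERCC totals (0.48). C8A, the other terminal component tested, had 3.30 and 3.52 CPM in control and 2.82 and 2.92 CPM in DKO, a log2 difference of -0.24 that did not pass (edgeR adjusted p = 0.745).

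Among the complement regulators 2 of 6 rose, 0 fell and 4 did not pass (2.24% of all tested genes rose and 3.14% fell). CFI encodes factor I, the protease that inactivates C3b and C4b, and lies on chromosome 4 (109740694 to 109802179). It had 16.6 and 16.8 CPM in control and 37.4 and 33.1 CPM in DKO, and the clones did not overlap. The rise was 2.12-fold (log2 fold change 1.08, SE 0.21, edgeR adjusted p = 0.00832). Without DKO replicate 1 the value was 1.02 (edgeR adjusted p = 0.108), without DKO replicate 2 it was 1.15 (edgeR adjusted p = 0.0501), and with ERCC totals 0.41, and none of these passed. SERPING1 encodes the C1 inhibitor, which also inhibits factor XIIa and plasma kallikrein, and lies on chromosome 11 (57597387 to 57614853). Its level was 147 and 160 CPM in control and 276 and 292 CPM in DKO, with no overlap. It rose 1.86-fold (log2 fold change 0.90, SE 0.19, edgeR adjusted p = 0.0140). It did not pass without DKO replicate 1 (0.96), without DKO replicate 2 (0.84) or with ERCC totals (0.19). The 50 nearest tested genes had a median of 0.21, and the nearest 20 of them 0.35.

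The regulators with the highest levels did not pass. CLU had 1184 and 1394 CPM in control and 1171 and 1387 CPM in DKO, with a log2 difference of -0.00 and an interval of -0.49 to 0.49. VTN had 563 and 669 CPM in control and 644 and 794 CPM in DKO (log2 difference 0.23, interval -0.24 to 0.71). In both genes the libraries of the clones overlapped. C4BPA and C4BPB encode the chains of C4-binding protein, a cofactor of factor I. C4BPA was at 1.20 to 2.43 CPM with overlapping libraries, and C4BPB had 2.17 and 2.64 CPM in control and 1.17 and 1.16 CPM in DKO (log2 difference -1.04, edgeR adjusted p = 0.155).

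Of the classical and lectin starters, 4 of 7 were tested and 0 passed. At an unadjusted edgeR p under 0.05, 1 of the 4 was higher (9.57% of all tested genes), and DESeq2 and limma-voom called 0. C1S, a protease of the C1 complex, had 6.09 and 8.87 CPM in control and 13 and 12.3 CPM in DKO (log2 difference 0.75, edgeR adjusted p = 0.118). With 1 library left out the value ran from 0.49 (without control replicate 1) to 1.09 (without control replicate 2). C1R, the protease that cleaves C1s, had 3.92 and 4.24 CPM in control and 4.28 and 3.59 CPM in DKO, and its libraries overlapped. Both genes lie on chromosome 12, where the 50 nearest tested genes had a median of -0.42. The ratio of C1S to C1R in CPM per kb was 1.41 and 1.91 in control and 2.77 and 3.12 in DKO, without overlap and without a test. It rests on only 38 to 59 counts of C1R per library. The ratios of C5 to C3, CFI to C3 and SERPING1 to C1S, formed in the same way, overlapped between the clones. C2, which with C4 forms the classical C3 convertase, differed by 0.51 (edgeR adjusted p = 0.293). MASP1, the lectin protease with the highest level of the starters, had 156 and 135 CPM in control and 172 and 185 CPM in DKO, a log2 difference of 0.31 (edgeR adjusted p = 0.388).

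**Figure D3:**
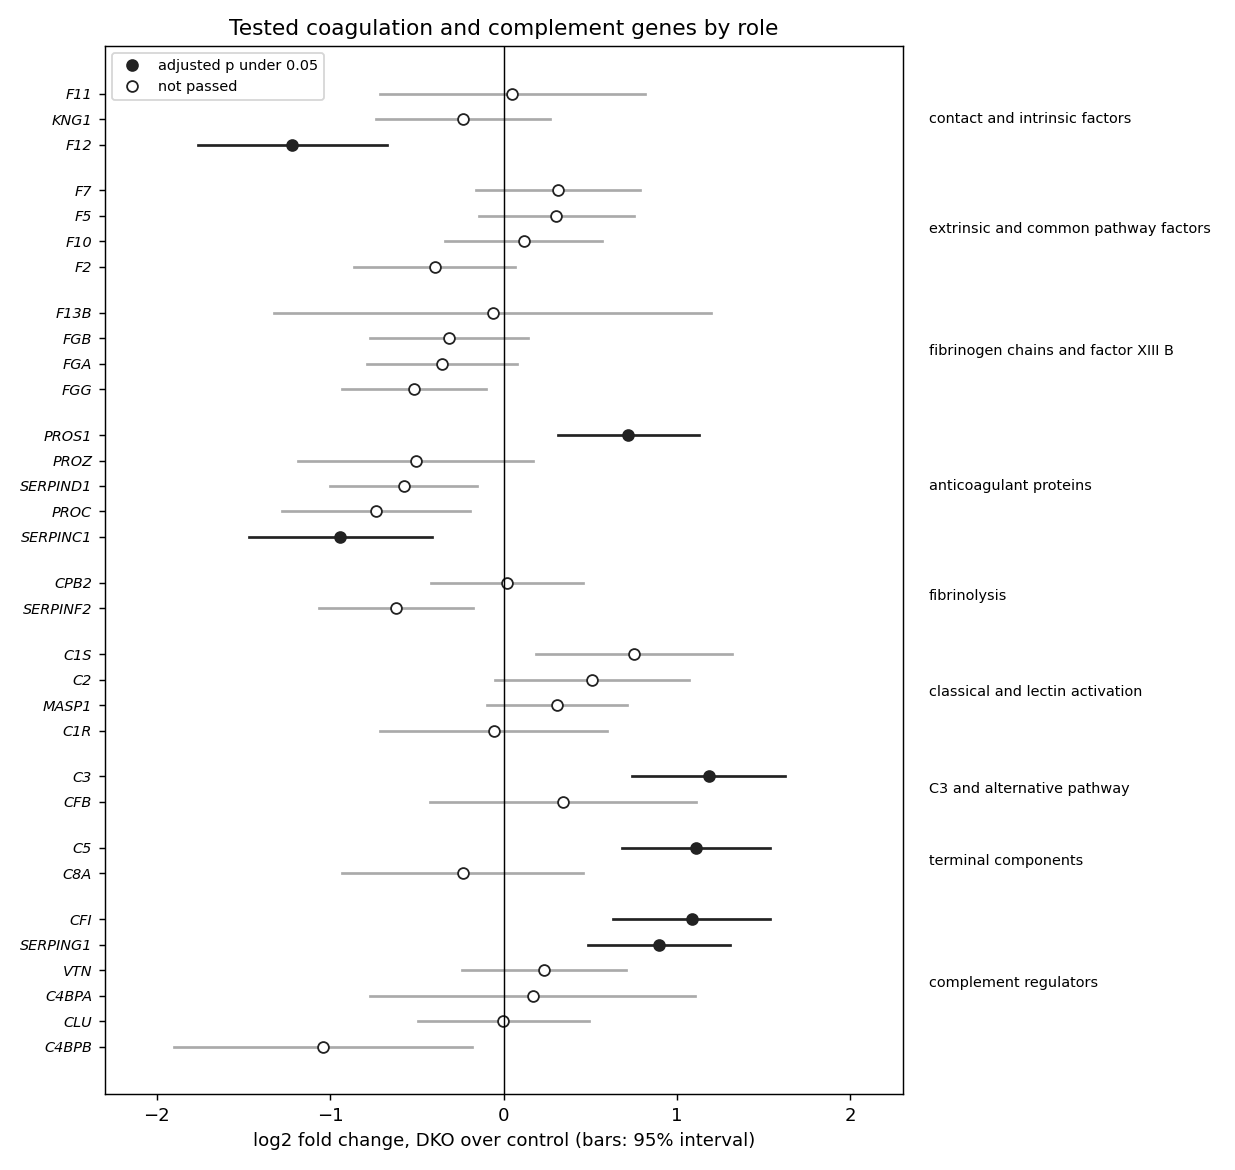
Log2 fold change of DKO over control for the 32 tested members, grouped by role, with bars for the 95% interval of the edgeR fit. Filled points passed the threshold of 0.05 on the adjusted p and open points did not. C3, C5, CFI, SERPING1 and PROS1 lie to the right of 0 as filled points, and F12 and SERPINC1 to the left.

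Of the 3 contact and intrinsic factors tested, 0 rose, 1 fell and 2 did not pass (3.14% of all tested genes fell). F12 encodes factor XII, the protease that starts the contact route, and lies on chromosome 5 (177402140 to 177409576). It had 16.6 and 18.8 CPM in control and 6.23 and 8.70 CPM in DKO. Both DKO libraries lay below both control libraries. The log2 fold change was -1.22 (SE 0.26, edgeR adjusted p = 0.0131), a 2.33-fold lower level. With ERCC totals it was -1.97 and passed, and without DKO replicate 1 it was -0.99 and did not (edgeR adjusted p = 0.212). Its 50 nearest tested genes had a median of -0.31. GRK6 overlaps F12 on the opposite strand with 625 to 1488 counts against 64 to 235 for F12, and had a log2 difference of -0.41 (edgeR adjusted p = 0.360). No source used here gives the strand setting of the counting, so the F12 values are uncertain. KNG1, which encodes kininogen, had 24.4 and 16.9 CPM in control and 16.3 and 18.2 CPM in DKO, and F11 stayed between 2.17 and 2.48 CPM. In both genes the libraries of the clones overlapped.

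Of the 4 extrinsic and common pathway factors 0 passed. At an unadjusted edgeR p under 0.05 the count was also 0 (9.57% of all tested genes were higher and 10.6% lower), and DESeq2 and limma-voom called 0. F2, the most abundant of them per kb, had 174 and 242 CPM in control and 141 and 172 CPM in DKO (log2 difference -0.40, edgeR adjusted p = 0.327). The fits without 1 library gave values from -0.65 (without control replicate 1) to -0.11 (without control replicate 2). F5 encodes the cofactor of factor Xa and differed by 0.30 (interval -0.14 to 0.75). F7, the partner of tissue factor, differed by 0.31 (interval -0.16 to 0.79). F10, which makes thrombin from prothrombin, differed by 0.12 (interval -0.34 to 0.57).

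All 3 fibrinogen chains had lower means in DKO, and none passed. FGB had 703 and 509 CPM in control and 494 and 470 CPM in DKO, and the lowest control value lay just above the highest DKO value. FGA had 563 and 547 CPM in control and 401 and 459 CPM in DKO. FGG had 312 and 245 CPM in control and 189 and 196 CPM in DKO. For each chain both DKO libraries lay below both control libraries, as they did for 3501 of all 13359 tested genes. The log2 differences were -0.31 for FGB (edgeR adjusted p = 0.441), -0.36 for FGA (edgeR adjusted p = 0.346) and -0.52 for FGG (edgeR adjusted p = 0.142). These are the genes whose 3′ UTR sites are printed above, along with F13B, the carrier subunit of factor XIII. F13B had only 15 and 5 counts in control and 11 and 12 in DKO (0.400 to 1.55 CPM). The interval of its log2 difference ran from -1.32 to 1.20, so no direction was resolved. Tested genes with UAUUUAU had a median of 0.04 and those with a 3′ UTR but without it -0.03. At an unadjusted edgeR p under 0.05, 1 of these 4 genes was lower (10.6% of all tested genes), and DESeq2 and limma-voom called 0.

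The proportions of the chains were compared within each library. In CPM per kb, FGB stood to FGA as 1.82 and 1.36 in control and as 1.80 and 1.50 in DKO. FGG stood to FGA as 0.610 and 0.492 in control and as 0.518 and 0.470 in DKO. Both ratios overlapped between the clones, which with 2 libraries per clone does not show that they were equal. The 3 genes lie next to each other on chromosome 4 (154562956 to 154612967), and their 50 nearest tested neighbours had a median of 0.13.

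The anticoagulants moved in both directions, with 1 of 5 risen, 1 fallen and 3 not passed (5.37% of all tested genes passed). PROS1 encodes protein S, the cofactor of activated protein C, and lies on chromosome 3 (93873033 to 93980003). It had 135 and 115 CPM in control and 219 and 190 CPM in DKO, without overlap, and rose 1.65-fold (log2 fold change 0.72, SE 0.19, edgeR adjusted p = 0.0409). The call was lost without control replicate 2 (0.63), without DKO replicate 1 (0.64), without DKO replicate 2 (0.80) and with ERCC totals (0.07). The 50 nearest tested genes had a median of 0.19. SERPINC1 encodes antithrombin, the main inhibitor of thrombin and factor Xa, and lies on chromosome 1 (173903804 to 173917378). It had 13 and 12.5 CPM in control and 6.91 and 6.27 CPM in DKO, and fell by 0.94 on the log2 scale (SE 0.25, edgeR adjusted p = 0.0382), a 1.92-fold lower level. It did not pass with DESeq2 (-0.95, DESeq2 adjusted p = 0.0537), without DKO replicate 1 (-0.99), without DKO replicate 2 (-0.89) or with ERCC totals (-1.62).

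The other anticoagulants lay lower in both DKO libraries than in both control libraries and did not pass. The same order of libraries was seen for 3501 of all 13359 tested genes. SERPIND1, the heparin cofactor II gene, had 81.3 and 60.7 CPM in control and 47.2 and 47.0 CPM in DKO (log2 difference -0.58, edgeR adjusted p = 0.111). With 1 library left out the value ran from -0.75 (without control replicate 2) to -0.39 (without control replicate 1). PROC, the gene of protein C, had 17.7 and 24.4 CPM in control and 10.7 and 14.3 CPM in DKO (log2 difference -0.74, edgeR adjusted p = 0.111). For PROC the fits without 1 library gave -0.99 (without DKO replicate 2) to -0.45 (without control replicate 2). PROZ, the gene of protein Z, differed by -0.51 (edgeR adjusted p = 0.398). Protein S and protein C act together, and the ratio of PROS1 to PROC in CPM per kb was 3.51 and 2.17 in control and 9.36 and 6.10 in DKO. It was not tested. PROS1 lay higher and PROC lower in both DKO libraries, so the ratio had to separate the clones and adds nothing to those values.

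Of the fibrinolysis genes 2 of 3 were tested and 0 passed. SERPINF2 encodes the plasmin inhibitor and had 145 and 196 CPM in control and 106 and 115 CPM in DKO, without overlap (log2 difference -0.62, edgeR adjusted p = 0.102). The fits without 1 library gave values from -0.85 (without control replicate 1) to -0.36 (without control replicate 2). CPB2 encodes the carboxypeptidase that protects fibrin from lysis and had 56.3 and 40.1 CPM in control and 51.0 and 45.5 CPM in DKO, with overlap and an interval of -0.42 to 0.46. At an unadjusted edgeR p under 0.05, 1 of the 2 was lower (10.6% of all tested genes), and DESeq2 and limma-voom called 0.

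None of the 7 members past the threshold held UAUUUAU in its 3′ UTR. AUUUA occurred in 2 of them. CFI held it once in a 3′ UTR of 199 bases and PROS1 2 times in 1243 bases. These sites are shown because they are the only AU-rich matches among the members that changed.
CFI, chr4:109740830-109740856, minus strand: ucaagaguuccAUUUAauggaaauaaa
PROS1, chr3:93874152-93874178, minus strand: ugaaggguuuuAUUUAcaaugugcagu
PROS1, chr3:93873673-93873699, minus strand: uguggcuucacAUUUAaaccaguaucu

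Other genes of both pathways, listed from general knowledge, were read from the same fit, in which 2.24% of all tested genes rose and 3.14% fell. Of 28 other coagulation and fibrinolysis genes 21 were tested, of which 1 rose, 0 fell and 20 did not pass (median 0.29). Of 32 other complement genes 10 were tested, of which 2 rose, 1 fell and 7 did not pass (median 0.26), and 12 of the 32 had 0 counts in every library.

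CPN2, a subunit of the carboxypeptidase that trims C3a and C5a, had 8.16 and 7.04 CPM in control and 14.2 and 16.5 CPM in DKO (log2 fold change 1.04, edgeR adjusted p = 0.0239). It did not pass without DKO replicate 1 (1.16), without DKO replicate 2 (0.90) or with ERCC totals (0.35). CFD, the gene of factor D, the protease that cleaves factor B, had 4.75 and 7.20 CPM in control and 1.17 and 2.5 CPM in DKO (log2 fold change -1.64, edgeR adjusted p = 0.0224). It did not pass without control replicate 2 (-1.26) or without DKO replicate 1 (-1.24), and did with ERCC totals (-2.46).

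**Figure D4:**
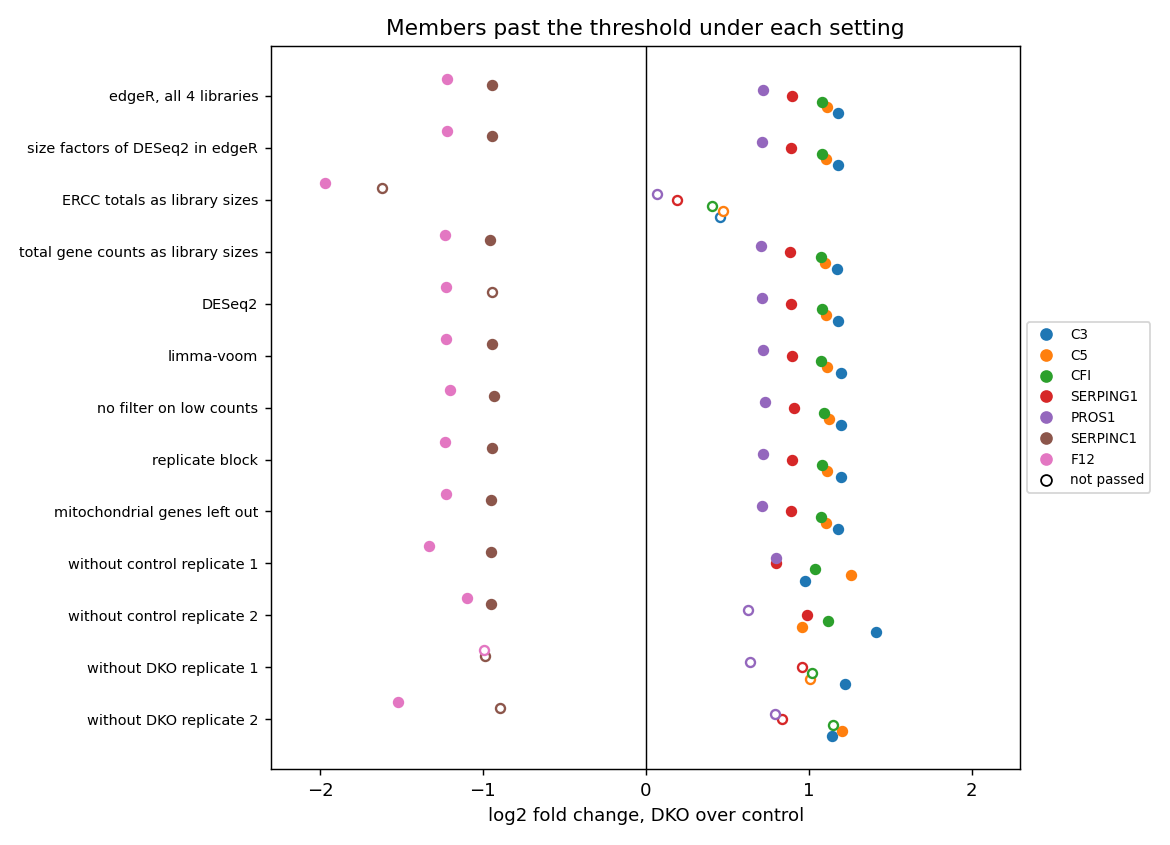
Log2 fold change of DKO over control for the 7 members past the threshold, in the fit of all 4 libraries and under each of 12 alternative settings. Filled points passed an adjusted p under 0.05 and open points did not, and points of a setting are offset vertically for legibility. No value crosses 0, and C3 is open only with ERCC totals.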

How the data were processed

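The deposited values are counts, whole and not normalized, for each gene in each of 4 libraries. The submitters' processing notes name STAR 2.5.3a, Subread 1.6.3 with featureCounts, hg38 and DESeq2. No source used here gives the annotation, the strand setting or the handling of multiply mapped reads. Of 42261 rows, 92 were ERCC spike-ins, which stayed out of library sizes and tests. Symbols were matched to GENCODE 29 on hg38, and 40751 of 42169 gene rows matched 1 gene. In R 4.3.3, edgeR 4.0.16 was fitted across all genes (filterByExpr, TMM factors, quasi-likelihood test, group as the only term). Levels are CPM of the library's gene counts, and intervals are 95%. Alternatives were other scalings, DESeq2 1.42.0, limma-voom (limma 3.58.1), no filter, a replicate block, mitochondrial genes left out and each library left out. Libraries of 1 clone differed beyond sampling noise (chi-square per degree of freedom 33.6 and 27.1). Mitochondrial genes made up 2.53% and 0.448% of gene counts in control and 3.59% and 1.16% in DKO. In both clones the share was higher in replicate 1. The members and lists were chosen with earlier results of these data known. Values per library are given for members past the threshold and the most abundant of each role, and other pathway genes are named where they passed, except some that are not reported here.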

Additional observations from a re-analysis of the deposited data

How the results depend on the processing

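With ERCC totals 0 members rose and 1 fell, the members' median log2 fold change was -0.66 and 335 genes passed in all. With DESeq2 1 member fell, and without a filter 1194 genes passed. In the fits without 1 library, the number of members that rose ran from 1 to 5 and the number that fell from 0 to 5. Their median ran from -0.14 to 0.048, and the genes called in all ran from 218 to 2172. Without DKO replicate 1 only C3 kept its call, and without DKO replicate 2 C3, C5 and F12 did. The 7 called members kept their sign under all 12 settings. In a fit without 1 library, 1 group holds only 1 library, so a lost call need not mean a changed value. With the replicate number as a block 9 members rose, 9 fell and 4021 genes passed in all. The 11 members called in addition were F5, C1S, C2 and MASP1, which rose, and F2, FGA, FGG, PROC, SERPIND1, SERPINF2 and C4BPB, which fell. The labels state no pairing, and the correlation over genes between deviations of libraries sharing a number was 0.470. The block ended none of the 7 calls. UUAUUUAUU in place of UAUUUAU was found in 0 members. With 20 neighbours in place of 50 the neighbours' median was 0.15 for C5 and 0.35 for SERPING1. Depth left 10 members untested.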
